A study of Mus musculus with 31 samples.

Results

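The genes examined here encode the Janus kinases, Jak1, Jak2, Jak3 and Tyk2, and the signal transducers and activators of transcription Stat2, Stat3, Stat5a, Stat5b and Stat6. They were taken by symbol from the total mRNA and the polysomal RNA table, and all 9 of these genes, 4 kinases and 5 STAT factors, were present among the 41255 genes listed in each. The cells were Ba/F3, a mouse lymphoid line, transduced with retroviral human RPL10 cDNA that was either wild type (WT) or carried the R98S mutation found in T-cell leukemia, and in both genotypes endogenous mouse Rpl10 was silenced with an shRNA. Each line was grown from a single cell, and R98S clones 11, 13 and 35 were compared with WT clones 28, 29 and 36, so that 3 clones stood behind each genotype and repeat libraries of a clone were not separate clones. Total mRNA came from 9 R98S and 8 WT libraries, and polysomal RNA, the mRNA recovered from sucrose gradient fractions with at least a pair of ribosomes, from 8 R98S and 6 WT libraries. No total mRNA library of WT clone 36 number 1 was among them. Its absence was a choice of the authors, for whom principal components placed that sample among the R98S ones. The choice of WT libraries was thus not independent of the expression compared here, and how the calls would stand with that library was not tested. The question was whether RPL10 R98S was accompanied by a different level of these transcripts, a different amount on polysomes, or a different ratio of polysomal to total RNA, which is the translation efficiency (TE) as measured here in the 14 cultures that had both libraries.

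Janus kinases sit on the cytoplasmic tails of cytokine receptors and phosphorylate each other, the receptor and the STAT factors that dock there. Phosphorylated STATs pair, enter the nucleus and switch on target genes, while SOCS proteins, PIAS proteins and phosphatases damp the signal. Ba/F3 cells depend on interleukin 3, whose receptor signals mainly through Jak2 to Stat5a and Stat5b. Jak1 and Jak3 serve the receptors that share the common gamma chain, Tyk2 and Stat2 the type I interferon receptor, Stat3 the receptors of the interleukin 6 family, and Stat6 the interleukin 4 receptor.

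Libraries held 8831180 to 22059792 reads on genes. In total mRNA the interleukin 3 receptor beta chains Csf2rb and Csf2rb2 had 28599 to 119306 and 23000 to 97783 normalized counts. The alpha chain Il3ra had 288 to 931, and Ptprc, which encodes the leukocyte antigen CD45, had 2680 to 8607. Of 12 B lineage markers only Cd79a and Cd79b reached a mean of 10 normalized counts, and Pax5 and Vpreb2 were listed at 0 in all total mRNA libraries, whereas 7 of 10 myeloid and mast cell markers passed, among them Gata2 at 14048 to 28941. Of 6 T lineage markers Cd3d, Cd3g and Lck passed, and the list summed to 82.1 to 154.3 in R98S and 38.4 to 244.9 in WT libraries. The B lineage sum was 1123 to 1603 in R98S and 964 to 1158 in WT libraries, and the myeloid and mast cell sum 16088 to 83182 in R98S and 21376 to 43523 in WT libraries; their part in the results below was not tested. Mouse Rpl10 had 901 to 2984 normalized counts in R98S and 620 to 5715 in WT total mRNA, and since both genotypes carried the knock-down and a human transgene, this did not check the labels. In bulk RNA, fewer cells of a type and less RNA per cell cannot be told apart.

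Positions are those of mouse build mm10 with GENCODE release 21 of the mouse annotation. Jak1 is on the minus strand at chr4:101152367-101265282, Jak2 on the plus strand at chr19:29251828-29313080, Jak3 on the plus strand at chr8:71676296-71690575 and Tyk2 on the minus strand at chr9:21104068-21131243. Stat6 (chr10:127642986-127660957) and Stat2 (chr10:128270559-128292849) are both on the plus strand. Stat5b (chr11:100780731-100850724, minus strand), Stat5a (chr11:100859351-100885169, plus strand) and Stat3 (chr11:100885098-100939540, minus strand) follow each other in 1 cluster, in which the last 72 exonic bases of Stat5a and Stat3 overlap on opposite strands. The exons of Jak3 share 404 bases, 7.55% of their length, with Insl3 on the same strand, and those of Tyk2 share 554 bases, 8.07%, with the antisense gene 1700084C06Rik; reads there could not be assigned with certainty.

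Stat5a and Stat5b are close copies, and 8.52% of the 50-base windows of Stat5a transcripts and 11.0% of those of Stat5b also occur in another gene's transcripts. Their longest identical coding run is 324 bases. The stretch from coding base 841 to 960 is shown because it crosses the end of that run at base 894; the sequences (GENCODE transcripts, 5′ to 3′) differ there by 1 base, in capitals, so that reads from it that do not cover that base fit both genes.
Stat5a: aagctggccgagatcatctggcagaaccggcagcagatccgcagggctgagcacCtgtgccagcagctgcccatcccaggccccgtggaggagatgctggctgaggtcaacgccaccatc
Stat5b: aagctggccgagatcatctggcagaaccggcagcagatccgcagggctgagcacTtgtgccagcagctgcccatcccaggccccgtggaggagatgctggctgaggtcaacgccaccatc

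The 3 members that passed the test in total mRNA below were Jak1, Stat3 and Stat5a, and the 250 bases before their RefSeq transcription starts (GRCm38.p6) are shown for that reason. Capitals mark the letters of 4 motifs searched on both strands: TTCNNNGAA, the element that STAT dimers bind, and TGACGTCA, CCAAT and GGGCGG, the elements of CREB, NF-Y and Sp factors. The Jak1 window is chr4:101265224-101265473 (minus strand), the Stat3 window chr11:100939541-100939790 (minus strand) and the Stat5a window chr11:100860234-100860483 (plus strand), the downstream one of 2 Stat5a starts.
Jak1: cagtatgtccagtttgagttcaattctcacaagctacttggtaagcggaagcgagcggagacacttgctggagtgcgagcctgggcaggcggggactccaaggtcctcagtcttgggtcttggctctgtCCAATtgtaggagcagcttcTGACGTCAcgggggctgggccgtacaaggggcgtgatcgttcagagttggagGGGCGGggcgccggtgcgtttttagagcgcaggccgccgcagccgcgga
Stat3: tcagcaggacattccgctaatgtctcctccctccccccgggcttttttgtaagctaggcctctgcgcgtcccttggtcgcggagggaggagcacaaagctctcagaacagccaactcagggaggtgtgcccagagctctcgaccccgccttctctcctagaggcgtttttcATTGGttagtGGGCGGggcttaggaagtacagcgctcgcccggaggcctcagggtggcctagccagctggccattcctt
Stat5a: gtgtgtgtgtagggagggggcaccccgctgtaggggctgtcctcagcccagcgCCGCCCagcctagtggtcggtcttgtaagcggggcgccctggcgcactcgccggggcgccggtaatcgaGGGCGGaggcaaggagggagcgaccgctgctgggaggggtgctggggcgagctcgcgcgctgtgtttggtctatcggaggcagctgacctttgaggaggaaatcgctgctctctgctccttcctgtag

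TTCNNNGAA was in none of the 11 windows of the 9 members, against 7.02% of all 32851 promoter windows of this length. TGACGTCA was in the Jak1 window alone, against 1.55% of all windows. CCAAT was in 4 of the 11 windows, those of Jak1, Stat2, Stat3 and Tyk2 (33.8% of all windows). GGGCGG was in 8 of the 11 windows, 1 for each member but Stat6 (32.7% of all windows). The upstream Stat5a window and the second Stat5b window held none of the 4 motifs. The hits are matches of letters and not mapped binding sites.

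Jak1, Stat3 and Stat5a transcripts rose in RPL10 R98S total mRNA, by 1.17- to 1.28-fold, and no member fell. Of the 9 members, 3 passed the test in total mRNA (33.3%), against 30.3% of 11133 genes tested in either direction and 14.5% in the higher direction, so the share of members called was near that of all genes. The test was limma on log2 of the normalized count plus 1, with Benjamini-Hochberg adjustment over all genes and an adjusted p under 0.1. No member had clone means that separated the genotypes in total mRNA, which 40.1% of genes did. The median log2 difference of the 9 members was -0.02, and that of all genes 0.00.

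**Figure D1:**
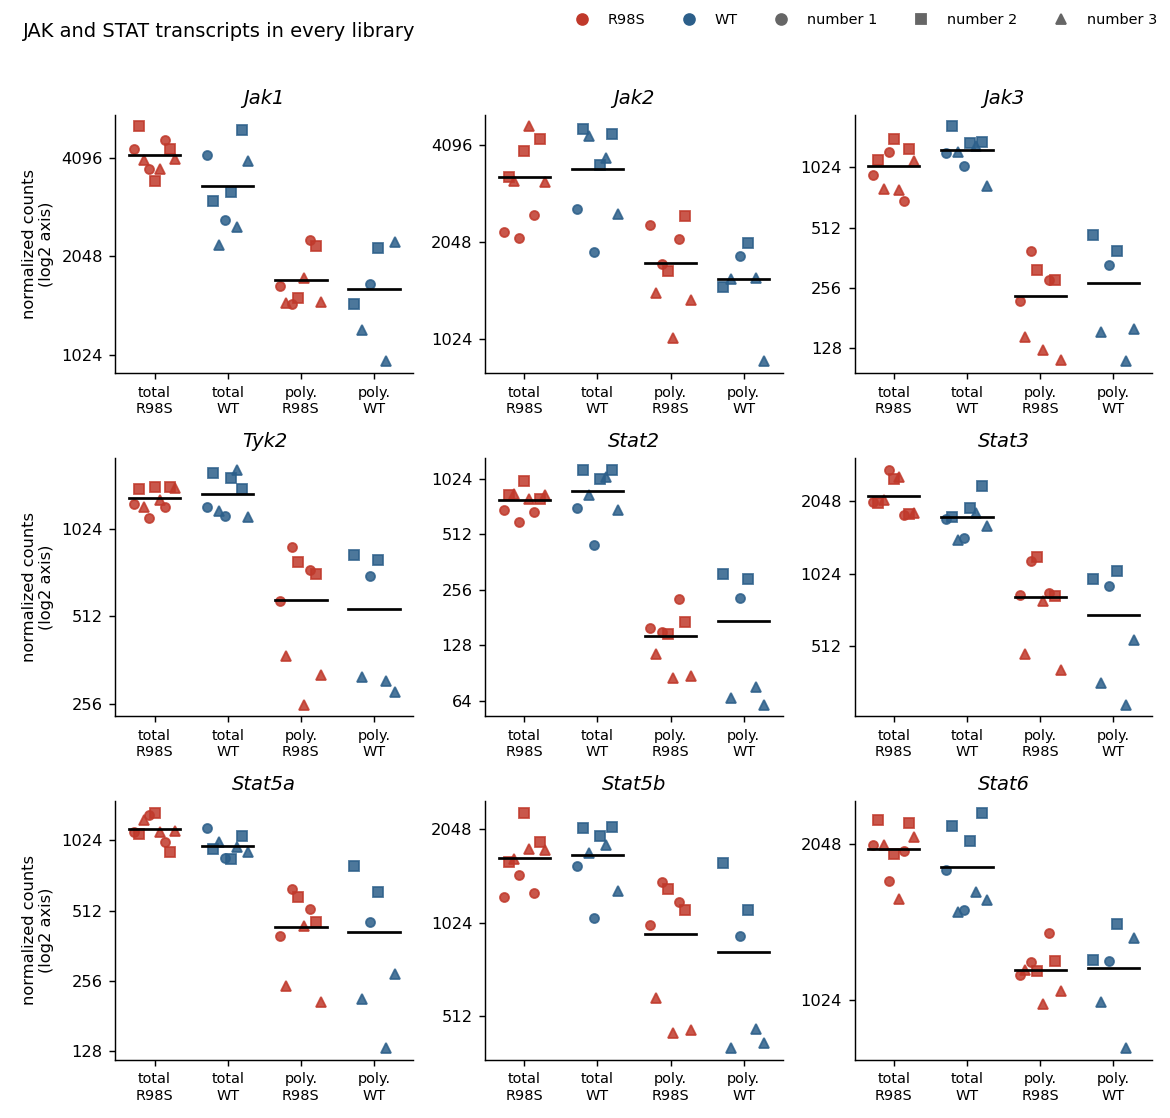
Normalized counts (log2 axis) of the 9 genes in each of 31 libraries, grouped by RNA fraction and genotype; the symbol gives the replicate number and the line the mean. R98S and WT libraries overlap for every gene, and the number 3 polysomal libraries (triangles) of Jak3, Tyk2, Stat2 and Stat5b lie below those of numbers 1 and 2.

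Among the kinases, Jak1 total mRNA was 3476 to 5110 normalized counts in the R98S libraries (median 4068), against 2210 to 4969 in the WT libraries (median 3118). All 9 R98S libraries were above the WT median, 5 of 8 WT libraries were below the lowest R98S library, and the WT libraries within the R98S range were clone 28 number 1 and both libraries of clone 36. The clone means were 4497, 3681 and 4351 for R98S clones 11, 13 and 35 and 3133, 2796 and 4493 for WT clones 28, 29 and 36. Jak1 was higher in R98S by 0.36 on the log2 scale (SE 0.14, adjusted p = 0.0713, limma), and the difference within replicate numbers 1, 2 and 3 was 0.35, 0.23 and 0.49.

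Jak2, the kinase bound to the interleukin 3 receptor beta chain, had 2103 to 4673 normalized counts in R98S total mRNA (median 3169) and 1912 to 4570 in WT (median 3641). The ranges were nearly the same, and Jak2 differed by -0.08 on the log2 scale (95% interval -0.49 to 0.33, adjusted p = 0.810, limma). Part of the spread followed the replicate number in both genotypes, since the number 1 libraries had 1912 to 2587 and the number 2 libraries 3263 to 4570. The number 3 libraries had 2493 to 4673 and overlapped both. Jak3, the partner of the common gamma chain, had 695 to 1405 in R98S (median 1093) against 828 to 1634 in WT (median 1259). Its log2 difference was -0.28 (interval -0.59 to 0.04, adjusted p = 0.195, limma), it was below 0 within each number (-0.28, -0.20 and -0.31), and without WT clone 36 number 3, the lowest WT library, it was -0.36 with an adjusted p of 0.0797. Tyk2 had 1111 to 1427 in R98S and 1122 to 1632 in WT libraries and differed by -0.04 (interval -0.24 to 0.16, adjusted p = 0.808, limma), the narrowest interval among the kinases.

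Stat3, which carries signals of the interleukin 6 family, had 1805 to 2776 normalized counts in R98S total mRNA (median 2038) and 1416 to 2365 in WT (median 1740). All 9 R98S libraries were above the WT median, and the 3 that exceeded every WT library were those of clone 13, whose mean was 2631 against 2044 and 1817 in clones 11 and 35. Stat3 was higher in R98S by 0.30 on the log2 scale (SE 0.12, adjusted p = 0.0706, limma); the difference was 0.46, 0.07 and 0.41 within numbers 1, 2 and 3. Without clone 13 it was 0.15 with an adjusted p of 0.365.

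Stat5a, one of the pair of STAT5 factors downstream of interleukin 3, had 912 to 1342 normalized counts in R98S total mRNA (median 1117) and 851 to 1156 in WT (median 950). Of the R98S libraries, 8 of 9 were above the WT median and 3 above every WT library. Stat5a was higher in R98S by 0.23 on the log2 scale (SE 0.09, adjusted p = 0.0750, limma), with 0.19, 0.21 and 0.28 within the 3 numbers. Its neighbour and copy Stat5b had 1242 to 2314 in R98S (median 1640) and 1060 to 2089 in WT (median 1773), a difference of -0.02 (interval -0.32 to 0.28, adjusted p = 0.931, limma). The difference between the Stat5a and Stat5b effects was not tested.

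Stat6 and Stat2 did not pass. Stat6 had 1606 to 2281 normalized counts in R98S against 1514 to 2349 in WT total mRNA (0.13, interval -0.09 to 0.34, adjusted p = 0.408, limma), and Stat2, the STAT of the interferon-stimulated gene factor complex, had 595 to 1001 against 448 to 1147 (-0.12, interval -0.46 to 0.23, adjusted p = 0.649, limma).

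The 3 calls were small and stood close to the threshold. With clone means as the unit, 3 against 3, the adjusted p was 0.245 for Jak1, 0.208 for Stat3 and 0.192 for Stat5a (limma). Removing 1 library ended the Jak1 call in 8 of 17 cases (R98S clone 11 numbers 1 and 2, R98S clone 35 number 1, WT clone 28 numbers 2 and 3, WT clone 29 numbers 1, 2 and 3), the Stat3 call in 6 (R98S clone 13 numbers 1, 2 and 3, WT clone 28 number 3, WT clone 29 number 1, WT clone 36 number 3) and the Stat5a call in 9 (R98S clone 11 numbers 1 and 3, R98S clone 13 numbers 1 and 2, WT clone 28 number 2, WT clone 29 numbers 1, 2 and 3, WT clone 36 number 3). The adjusted p then reached at most 0.149, 0.140 and 0.140 (limma), and the differences stayed above 0, at 0.28 to 0.45, 0.25 to 0.36 and 0.20 to 0.27.

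On polysomes, no member passed the test. The count was 0 of 9, against 13.5% of 10707 genes tested, and the smallest adjusted p was 0.662 (limma). An unadjusted p under 0.05 was found for 0 members, against 2326 of the 10707 genes (limma). Neither edgeR nor DESeq2 called any. The log2 differences ran from -0.13 for Jak3 to 0.32 for Stat3, with 7 members above and 2 below 0, and no member had clone means that separated the genotypes, which 27.2% of genes did.

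Jak1 had 1465 to 2294 normalized counts in R98S polysomal RNA (median 1594) and 977 to 2262 in WT (median 1571), a log2 difference of 0.13 (interval -0.30 to 0.56). Stat3 had 408 to 1202 in R98S (median 830) and 293 to 1055 in WT (median 726), a difference of 0.32 (interval -0.38 to 1.02). Stat5a had 208 to 633 in R98S (median 447) and 132 to 794 in WT (median 365), a difference of 0.23 (interval -0.57 to 1.04). For these 3 genes the polysomal interval thus held both 0 and the total mRNA difference. For Jak2, 1031 to 2472 in R98S stood against 875 to 2035 in WT, and for Stat6 1008 to 1379 against 827 to 1435. The intervals were narrowest for Stat6 (-0.30 to 0.32) and widest for Stat2 (-0.86 to 0.85), whose libraries had 60.8 to 312.8 normalized counts.

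**Figure D2:**
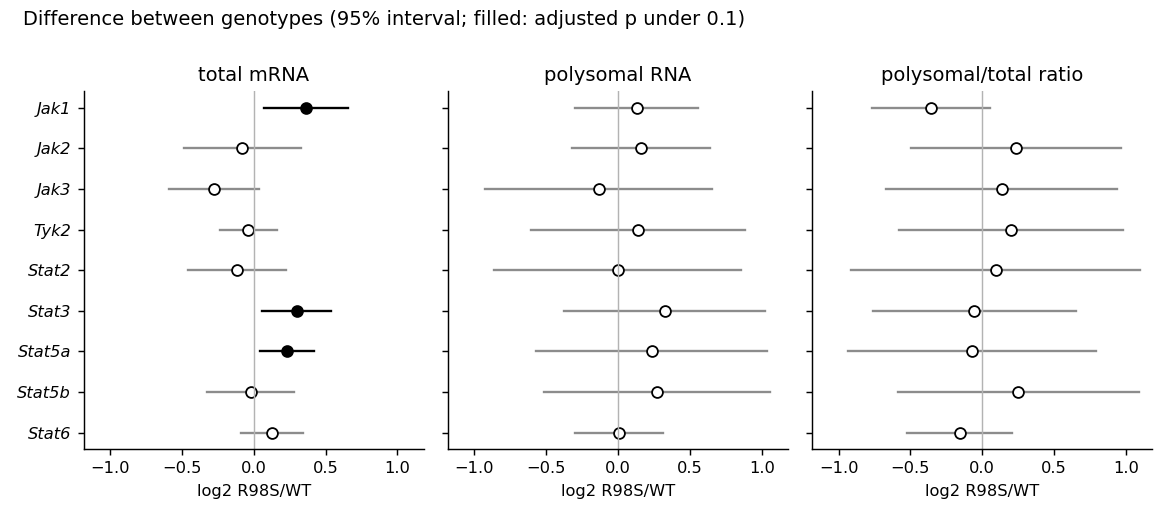
Log2 difference R98S minus WT of each gene in total mRNA, polysomal RNA and their ratio per culture, with the 95% interval from limma; filled points passed an adjusted p of 0.1. The filled points are Jak1, Stat3 and Stat5a in total mRNA, at 0.36, 0.30 and 0.23, and the intervals of polysomal RNA and of the ratio are wider.

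TE did not pass the test for any member either. Among 10627 genes tested 0.047% passed (5 genes, all higher in R98S, or 39 higher and 7 lower, 0.433%, with the replicate number as a block), none of the 9 members did in either fit, and none had an unadjusted p under 0.05 without the block (limma). Such an unadjusted p was found for 687 of the 10627 genes. edgeR and DESeq2 with an interaction term also called no member.

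The smallest adjusted p was that of Jak1. Its polysomal to total ratio was 0.365 to 0.506 in R98S cultures (median 0.412) and 0.388 to 0.673 in WT cultures (median 0.558). All 8 R98S cultures were below the WT median, 4 of them below every WT culture, and 4 of 6 WT cultures were above every R98S culture. The log2 difference was -0.36 (SE 0.19, interval -0.77 to 0.05, adjusted p = 0.833, limma, and 0.359 with the replicate number as a block), and -0.61, -0.28 and -0.32 within numbers 1, 2 and 3. The mean log2 ratios of the Jak1 clones did not overlap, at -1.42 to -1.15 for R98S against -0.95 to -0.83 for WT clones, and neither did those of Jak3 and Stat5b, in which R98S was higher; 17.1% of genes had such a separation in either direction. The clone means covered different replicate numbers, WT clone 36 being present only with number 3.

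Every member had a ratio below the median gene. Averaged over the 14 cultures the ratio was lowest for Stat2, 0.203 ± 0.125 (SD), and Jak3, 0.225 ± 0.092, which stood at percentiles 1.14 and 1.98 of 10627 genes on the log2 scale, and highest for Stat6, 0.632 ± 0.105, at percentile 31.2. In number 1 the order of the lowest pair turned, with mean ratios of 0.334 for Stat2 and 0.320 for Jak3. That turn rested on the 1 WT culture of number 1, with 0.514 for Stat2 and 0.320 for Jak3. In the 3 R98S cultures of number 1 the means were 0.274 and 0.320. The place of Stat6 rested on number 3, since in number 1 the mean ratios of Jak2 (0.925) and Stat5b (0.890) and in number 2 those of Stat5b (0.631) and Stat5a (0.624) were above that of Stat6 (0.687 and 0.596). Stat3, Stat5a and Tyk2 lay at percentiles 9.24, 9.48 and 10.9, Stat5b and Jak2 at 18.6 and 20.2, and Jak1 between Tyk2 and Stat5b. The tables were scaled separately, so these values order genes and are not shares of mRNA on ribosomes.

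The difference of number 3 from the other numbers was larger than that of the genotypes in the ratio of 7 members, the exceptions being Jak1 and Stat6. The share of all genes with such a larger difference is not given here. In both genotypes the mean polysomal level of all 9 members was lowest in number 3. The share of all genes that were lowest in number 3 in both genotypes is not given here. By the looser criterion of number 3 against the other numbers pooled, 51.4% of all genes had a lower polysomal level. All 9 members did so as well, by -0.23 on the log2 scale for Stat6 to -1.37 for Stat5b. The Tyk2 ratio was 0.465 to 0.796 in number 1 cultures, 0.499 to 0.549 in number 2 and 0.187 to 0.308 in number 3. The Stat5b ratio was 0.808 to 0.947, 0.569 to 0.773 and 0.235 to 0.358, and these ranges did not touch. Jak2 fell already between numbers 1 and 2, with 0.830 to 1.051, 0.326 to 0.579 and 0.221 to 0.448.

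On the log2 scale the mean ratio of number 3 minus that of the other cultures was -1.47 for Stat2, -1.42 for Stat5b, -1.26 for Tyk2, -1.24 for Stat5a, -1.06 for Jak3, -1.01 for Stat3 and -0.85 for Jak2, between percentiles 3.99 and 17.5 of all genes. Over all genes this difference had a median of -0.06 and its 5th and 95th percentiles were -1.38 and 1.58, so genes moved in both directions. Jak1 (-0.15) and Stat6 (-0.06) lay near the median gene. In total mRNA the same comparison ran from -0.26 to 0.20 over the members. The earlier fall of the Jak2 ratio went with a higher total mRNA level, the mean being 2254 normalized counts in number 1, 4004 in number 2 and 3595 in number 3, against 2001, 1917 and 1306 in polysomal RNA. Number 3 made up 3 of 6 WT but 3 of 8 R98S cultures; with the replicate number as a block, all members stayed uncalled in polysomal RNA and TE.

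**Figure D3:**
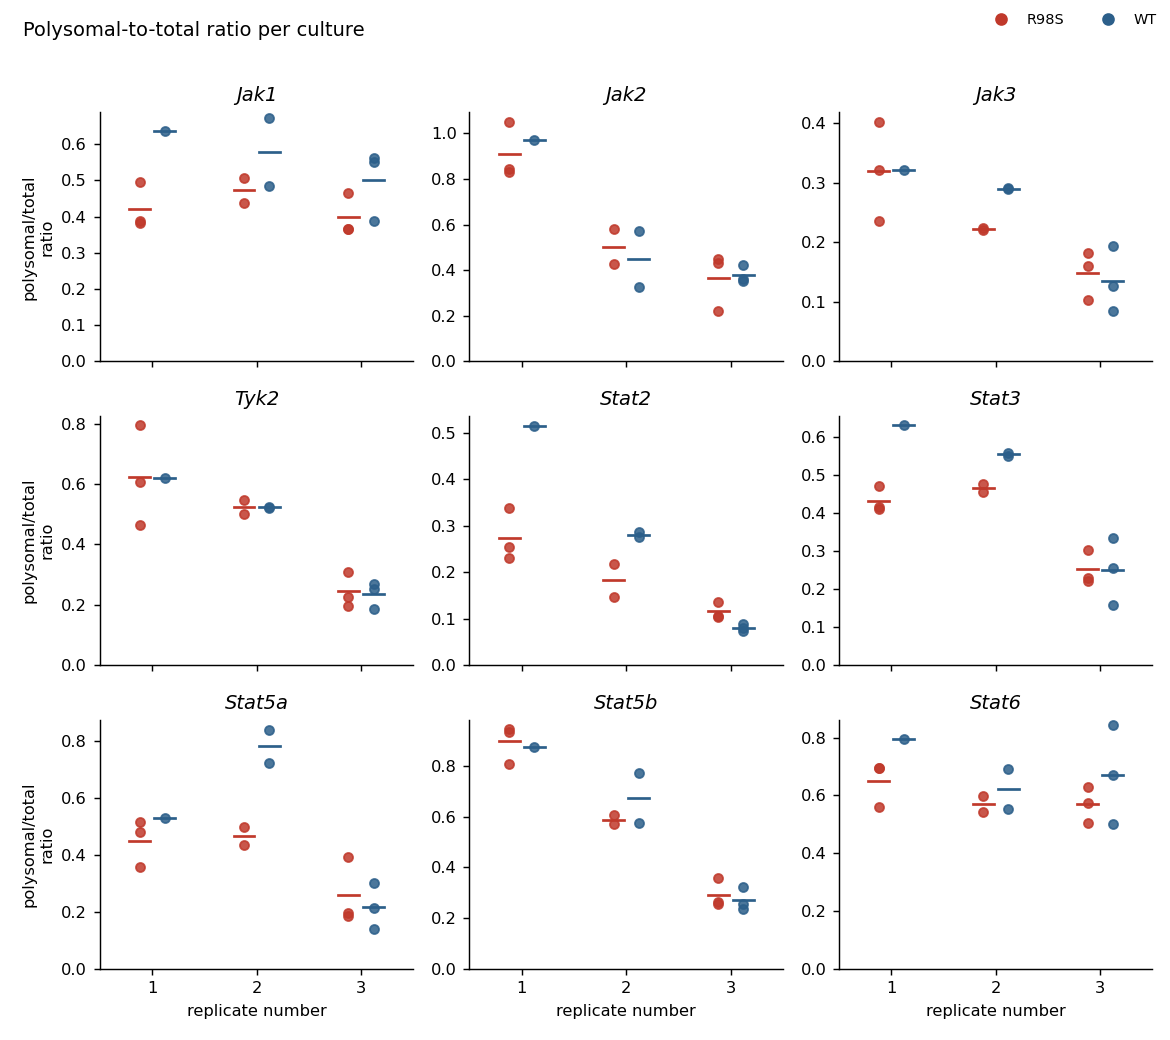
Polysomal to total ratio of each gene per culture (linear axis) by replicate number and genotype, with the mean of each set as a line; number 1 has 1 WT culture. Ratios of Tyk2, Stat2, Stat5b, Jak3 and Stat3 are lowest in number 3 in both genotypes, while those of Jak1 and Stat6 overlap between the numbers.

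Stat2 stood apart in another way. In number 2 its polysomal values were 148 and 172 in R98S and 293 and 313 in WT libraries, and in number 3 they were 85.1 to 114.4 in R98S and 60.8 to 75.5 in WT libraries. The genotypes were thus apart in opposite directions, by -0.92 and 0.49 on the log2 scale, as 1.48% of genes were in polysomal RNA (2.26% for the ratio). The difference between the numbers did not pass a genotype by number term fitted after the data were seen (1.41, SE 0.38, adjusted p = 0.476, limma), which 0.028% of genes passed, nor in the ratio (1.17, SE 0.50, adjusted p = 0.707, limma; 0.0282% of genes passed). Without all number 3 libraries, Stat2 was lower in R98S polysomal RNA by -0.71 on the log2 scale with an adjusted p of 0.0441 (limma), the single member called in polysomal RNA under any alternative. The share of all genes called in that fit is not given here, so whether this call exceeds it cannot be read.

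Per kilobase of exon, Jak2 and Jak1 were the most abundant kinases and Stat6 the most abundant STAT factor in total mRNA. The mean over the 17 libraries was 665 ± 185 normalized counts per kb (SD) for Jak2, 524 ± 116 for Jak1, 438 ± 63.0 for Stat6, 303 ± 60.8 for Stat5b, 212 ± 47.9 for Jak3, 207 ± 40.9 for Stat3, 193 ± 24.1 for Tyk2, 149 ± 21.0 for Stat5a and 140.0 ± 32.3 for Stat2. Stat6 exceeded Stat5b in 17 of 17 libraries, and Stat5b exceeded Jak3 in 16. Tyk2 exceeded Stat5a in 16 libraries as well. Jak3, Stat3 and Tyk2 were within their spread of one another, as Jak3 exceeded Stat3 in 9 of 17 libraries and Stat3 exceeded Tyk2 in 10. Jak2 exceeded Jak1 in 11, Jak1 exceeded Stat6 in 13 and Stat5a exceeded Stat2 in 12, and these neighbours were not separated either.

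Within the kinases, Jak1 made up 36.4% ± 5.95 of the summed total mRNA level per kb in R98S (SD, n = 9) and 29.7% ± 8.00 in WT (n = 8), and Jak2 39.6% ± 6.98 and 42.9% ± 7.49. Tyk2 and Jak3 contributed 11.9% to 14.8% each. Among the STAT factors, Stat6 made up 35.8% ± 4.35 in R98S and 35.2% ± 2.60 in WT, Stat5b 23.4% ± 2.92 and 25.5% ± 2.37, and Stat3 17.9% ± 3.00 and 15.5% ± 1.38. In polysomal RNA Jak2 was the leading kinase, with 48.3% ± 4.69 in R98S and 47.3% ± 10.6 in WT libraries, and Stat6 the leading STAT factor, with 45.4% ± 8.42 and 49.6% ± 11.8. These polysomal shares pool replicate numbers, and number 3 made up 3 of 8 R98S but 3 of 6 WT libraries. The polysomal level of number 3 differed from that of the others by -0.23 on the log2 scale for Stat6. For the other STAT factors it differed by -1.09 to -1.37. Jak3 was 5.95% and 7.21% of the kinases there, against 12.1% and 14.8% in total mRNA, and Stat2 3.94% and 4.60% of the STAT factors.

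**Figure D4:**
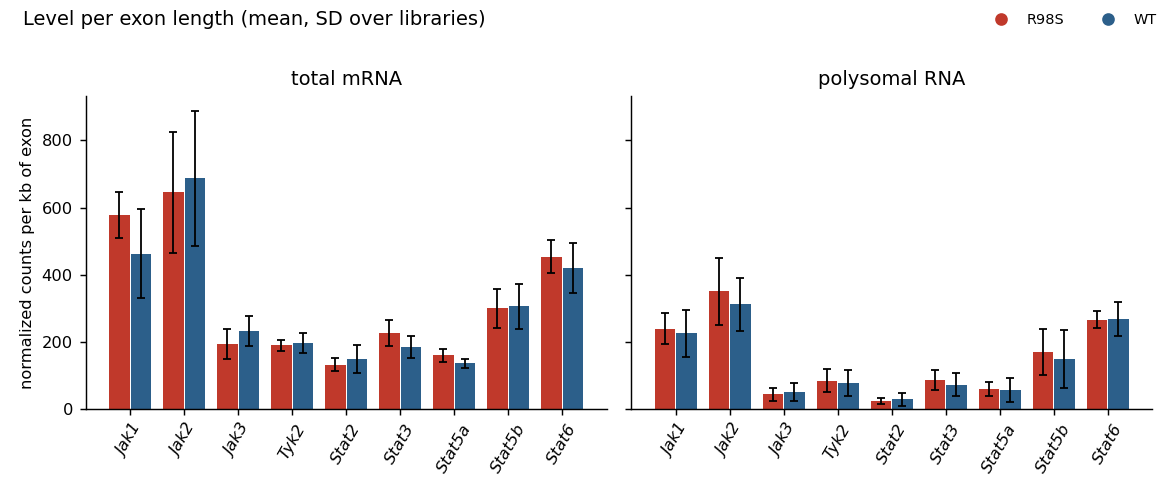
Mean normalized counts per kb of exon (linear axis from 0) of each gene in total mRNA and polysomal RNA by genotype, with the SD over libraries as the error bar; the fractions were scaled separately. Jak2, Jak1 and Stat6 are the tallest bars in both fractions.

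Over the 17 total mRNA libraries, which share clones and replicate numbers, some members varied together. Pearson's r on the log2 scale was 0.89 for Stat2 and Stat5b, 0.87 for Jak2 and Stat5b, 0.82 for Jak2 and Stat2 and 0.81 for Tyk2 and Stat2. Stat3 and Stat5a, which overlap at their ends, had an r of 0.69, and Jak1 and Jak3 the lowest value, -0.33. Among 9247 other genes with a mean of at least 100, the closest to Jak1 were Scp2 (r = 0.85), a lipid transfer protein, Osbpl9 (0.83) and Col7a1 (0.83), the closest to Stat3 were Stx8 (0.84), Erbb3 (0.84) and Cnp (0.84), and the closest to Stat5a were Sp110 (0.79), Tk2 (0.79) and Bcas3 (0.74).

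Other genes of the pathway reached larger differences than the kinases and STAT factors. Of a list of 82 receptors, adaptors, inhibitors, cofactors and targets, 67 were tested in total mRNA, where 10 rose, 15 fell and 42 did not pass (37.3% called, against 30.3% of all genes; 15.8% of all genes were lower). In polysomal RNA 66 were tested, where 13 rose, 7 fell and 46 did not pass (30.3% called, against 13.5% of all genes, 7.66% higher and 5.87% lower). With the replicate number as a block the shares were 46.3% against 38.4% of all genes in total mRNA and 43.9% against 30.9% in polysomal RNA (limma). In TE none of 66 passed, with the smallest adjusted p at 0.523 (limma), and edgeR and DESeq2 called none either. At an unadjusted p under 0.05 stood 10 of the 66, against 687 of all 10627 genes (limma). The list had a median log2 difference of -0.10 at the level of total mRNA, 0.11 on polysomes and 0.12 for TE. The medians of all genes were 0.00, -0.02 and 0.01.

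**Figure D5:**
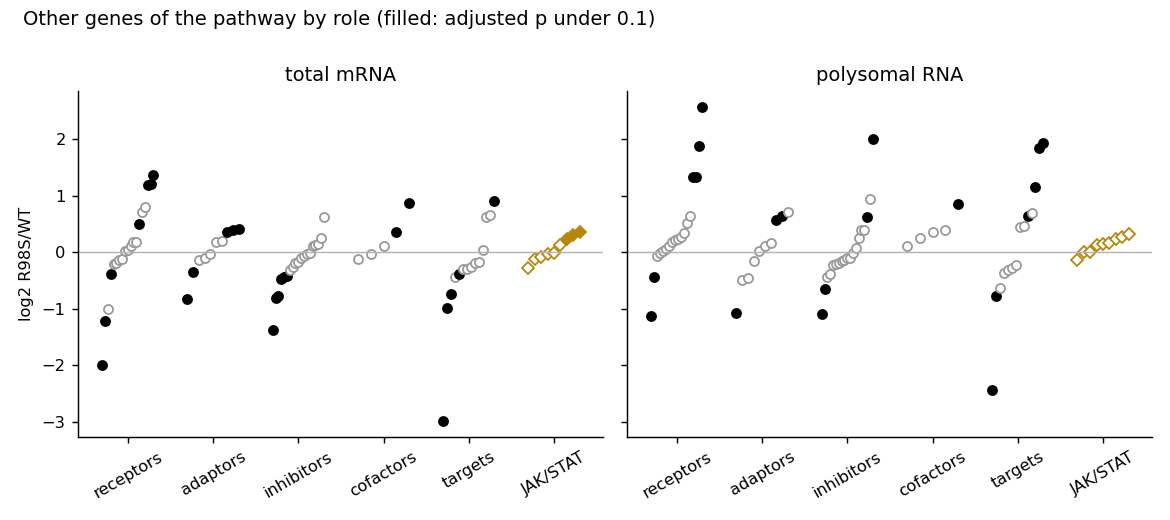
Log2 difference R98S minus WT of the pathway genes by role and of the 9 JAK and STAT genes (diamonds) in total mRNA and polysomal RNA; filled points passed an adjusted p of 0.1. The JAK and STAT genes lie between -0.28 and 0.36, while among the pathway genes Id1 lies at -2.99 in total mRNA and Socs1 at 2.00 in polysomal RNA.

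Of the receptors, 4 of 19 tested rose and 3 fell in total mRNA (36.8% called, against 30.3% of all genes). Csf2rb and Csf2rb2, the beta chains of the interleukin 3 receptor to which Jak2 binds, led the list. Csf2rb had 59641 to 119306 normalized counts in R98S and 28599 to 54062 in WT total mRNA, and the ranges did not overlap (1.20 on the log2 scale, SE 0.15, adjusted p = 1.78e-05, limma). Csf2rb2 had 44593 to 97783 and 23000 to 37815 (1.20, SE 0.15, adjusted p = 1.65e-05, limma). The genes are close copies, and how reads that fit both were counted was not tested. In polysomal RNA 4 of 18 receptors rose and 2 fell (33.3%, against 13.5% of all genes, or 38.9% against 30.9% with the block). Il21r, the interleukin 21 receptor, had 21.4 to 50.2 in R98S and 5.29 to 13.2 in WT polysomal RNA (1.88, SE 0.26, adjusted p = 0.000154, limma). Il2rb, the beta chain of the interleukin 2 receptor, fell by 1.13 there (SE 0.27, adjusted p = 0.0146, limma), from a WT median of 150.2 to 64.6, and it did not pass with clone means (adjusted p = 0.114) or without number 3 (adjusted p = 0.154, limma). Other calls, named after their values were seen, included Crlf2 (higher) and Il2rb, Il10ra and Ifnar2 (lower) in total mRNA, and Csf2rb and Csf2rb2 (higher) and Ifnar2 (lower) in polysomal RNA.

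Of the 19 inhibitors tested, none rose and 6 fell in total mRNA (31.6% called, near the 30.3% of all genes). Socs5 fell from 603 to 961 in WT libraries to 334 to 554 in R98S libraries without overlap (-0.77, SE 0.11, adjusted p = 6.92e-05, limma). The other inhibitors that fell were Socs3 (-0.81), Usp18 (-1.38), Ptprc (-0.48), which was also the leukocyte marker above, Ptpn6 (-0.44) and Pias3 (-0.42), named after their values were seen. In polysomal RNA 2 inhibitors rose and 2 fell (21.1%, against 13.5% of all genes). With the block the share of inhibitors turned to below that of all genes, 26.3% against 30.9%. Socs1, the SOCS protein that binds Jak kinases directly, had 772 to 1466 in R98S and 68.8 to 450.8 in WT polysomal RNA, again without overlap (2.00, SE 0.34, adjusted p = 0.00116, limma), whereas its total mRNA difference was 0.62 (SE 0.48, adjusted p = 0.388) and its TE difference 1.32 (SE 0.97, adjusted p = 0.893). Socs4 (0.62), named after its value was seen, rose, and Socs5 (-0.66) and Usp18 (-1.09) fell.

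Among the STAT targets, 1 of 14 tested rose and 4 fell in total mRNA (35.7% called, against 30.3% of all genes), and 4 rose and 2 fell in polysomal RNA (42.9%, against 13.5%, or 71.4% against 30.9% with the block). Id1, an inhibitor of differentiation factors, had 77.2 to 1148.9 in R98S and 1286 to 3371 in WT total mRNA (-2.99, SE 0.47, adjusted p = 0.000204, limma) and fell by 2.44 in polysomal RNA (SE 0.49, adjusted p = 0.00450). Ccnd3, cyclin D3, fell by 0.74 in total mRNA (SE 0.13, adjusted p = 0.000385, limma) and differed by -0.23 in polysomal RNA (adjusted p = 0.522). Lif, a cytokine gene, had 939 to 2062 in R98S and 269 to 1119 in WT polysomal RNA (1.93, SE 0.29, adjusted p = 0.000352, limma), while its total mRNA difference was 0.63 (adjusted p = 0.191). The remaining targets, named after their values were seen, were Ccnd1 (0.90), Bcl2l1 (-0.98) and Mcl1 (-0.39) in total mRNA and Osm (1.84), Ccnd1 (1.16), Pim1 (0.65) and Bcl2l1 (-0.77) in polysomal RNA.

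Of 10 adaptors, 3 rose (Grb2, Gab2 and Sos2, by 0.35 to 0.41) and 2 fell (Shc1 and Sh2b2) in total mRNA (50% called, against 30.3% of all genes). In polysomal RNA 3 passed (30%, against 13.5%, or 60% against 30.9% with the block), where Grb2 and Sos2 rose and Sh2b2 fell by 1.07 (SE 0.24, adjusted p = 0.00869, limma), a call lost without number 3 (adjusted p = 0.151). Of 5 cofactors, 2 passed in total mRNA (40%, against 30.3% of all genes) and 1 in polysomal RNA (20%, against 13.5%, or 20% against 30.9% with the block). Nmi, a protein that binds STAT factors, rose by 0.87 in total mRNA (SE 0.13, adjusted p = 0.000100, limma), from 126 to 230 in WT to 239 to 387 in R98S libraries, and by 0.86 in polysomal RNA (SE 0.23, adjusted p = 0.0244), and Irf9, which joins Stat2 in the interferon-stimulated gene factor complex, rose by 0.36 in total mRNA. These adaptors and Irf9 were named after their values were seen.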

How the data were processed

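Total mRNA and polysomal RNA of Ba/F3 cells were sequenced from stranded poly(A) libraries, and 8831180 to 22059792 reads per library were counted on genes. The authors trimmed the first base and removed ribosomal and transfer RNA reads with Bowtie2. Reads were aligned to mm10 with TopHat2 2.0.11, primary alignments that reached a mapping quality limit were kept, and exonic reads were counted with HTSeq. The annotation and the strand setting of that count are not given in the sources used here. The deposited values are signal in normalized counts, that is read counts divided by a DESeq2 size factor, computed for each table separately, and 100.0% of them came back as whole reads (tolerance 0.01).

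Genes with a mean of at least 10 were tested on log2(value + 1) with limma 3.58.1 in R 4.3.3 (two-sided, moderated with an intensity trend), with Benjamini-Hochberg adjustment over all genes and a threshold of 0.1, so fold changes of low genes are understated. For TE, the log2 total value of each culture was subtracted from its log2 polysomal value. edgeR 4.0.16 and DESeq2 1.42.0 on the recovered reads, other scalings, pseudocounts, filters, clone means and the removal of libraries, clones and numbers were alternatives. The scripts were tested on simulated data. Libraries of a clone were repeat cultures, so p-values measure the spread between libraries more than between clones.

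Same-numbered libraries deviated together, with correlations between genotypes of 0.48 to 0.62 in total mRNA, 0.67 to 0.87 in polysomal RNA and 0.54 to 0.81 in TE for the 3 numbers, and by this check on the data, and not by the labels, the numbers pair the samples. The values reported are from fits without the replicate number, and the fit with it as a block was an alternative. The rule for named genes took all 9 members, the up to 3 called pathway genes per direction and comparison with the smallest adjusted p, and the 3 genes most correlated with each called member, and further pathway genes were named after their values were seen, as stated beside them. The counts of the pathway list include 1 gene whose values are not reported here. Members and lists were chosen with earlier results of these data known.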

Additional observations from a re-analysis of the deposited data

Results flagged for a closer look

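Stat2, a partner of the interferon response, was the 1 member whose genotypes were apart in opposite directions in different replicate numbers. Its log2 difference of R98S minus WT was -0.92 in number 2 and 0.49 in number 3 in polysomal RNA, and -0.65 and 0.52 in the polysomal to total ratio. These rest on 4 libraries in number 2 and 6 in number 3, with 46 to 470 reads on Stat2 per polysomal library. The difference itself, fitted after the data were seen, did not pass in either measure (adjusted p = 0.476 and 0.707, limma). Among 54 groups of 4 to 10 libraries or cultures of the members, 0 had a library far from the others.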

How the results depend on the processing

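Of 1071 log2 differences of the 9 members under alternatives, 1011 kept their side of the threshold, 58 lost the call and 2 gained one. The sign changed in 115, all where the reported difference was not called (26 for total mRNA, 49 for the polysomal level and 40 for TE, most often Stat6 in polysomal RNA with 17 and Stat5b in total mRNA with 14), and in 0 of those of Jak1, Stat3 and Stat5a in total mRNA. The 3 members called in total mRNA became 0 with no low-value filter, with clone means, within number 1, 2 or 3, without clone 11 or 29 and at an adjusted p of 0.05. The count was 1 without clone 13 (Jak1) and 1 without clone 28 (Stat5a), and ran from 0 to 3 over the removal of single libraries or numbers. With edgeR it was 2 (Jak1 lost, just above the threshold). With the replicate number as a block it stayed 3 (adjusted p = 0.0551 for Jak1, 0.0520 for Stat3 and 0.0650 for Stat5a, limma). In polysomal RNA the member count was 0 to 1 over those removals, the 1 being Stat2 without number 3, a fit given here without its share of all genes. In TE the member count was 0 under all 40 alternatives. The number of pathway genes called in total mRNA, 25 as reported, was 31 (13 higher and 18 lower) with the replicate block, 13, 1 and 8 within numbers 1, 2 and 3, 13, 14 and 16 without clones 11, 28 and 29, and 10 to 16 without a number. In polysomal RNA, where 20 were called, it was 29 (18 higher and 11 lower) with the replicate block, 10 with clone means, 9 within number 2, 12, 13, 11 and 13 without clones 11, 13, 35 and 36, 13 at an adjusted p of 0.05 and 8 to 22 without a number. In TE the number of pathway genes called was 2 with clone as a random effect, where 108 genes were higher and 35 lower of 10627 tested. Over all genes, the replicate block raised the calls in polysomal RNA from 820 higher and 629 lower to 1625 and 1682, and in TE from 5 to 39 higher and 7 lower, while DESeq2 called 28 and 9 in TE and edgeR 1 and 0. The block changed no member's call. The causes were not tested.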
